A study of Mus musculus with 20 samples.

Results

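Kidneys of mice carrying transplanted LOY bone marrow were compared with kidneys of mice carrying transplanted Control bone marrow. LOY, loss of the Y chromosome, is an acquired change of blood-forming cells in which the Y is missing from the cell. The comparison took in 12 of the 20 kidneys of the series: those of the table that holds Control and LOY kidneys together, 6 per genotype. The Control animals were numbered 3, 11, 12, 13, 16 and 17, and the LOY animals 5, 8, 9, 10, 14 and 18. All 12 were aged mice with transplanted marrow and no treatment listed, and each gave 1 RNA-seq library of total kidney RNA. The other 8 kidneys, all with LOY marrow and given a compound, were counted in another table and were not used. The sources used here do not give how the Y was lost from the marrow, the donors, the conditioning, the strain, the ages or the share of blood cells without a Y. The labels name separate animals but no litter, cage or extraction day.

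The kidney filters blood in its glomeruli and recovers glucose, amino acids, phosphate and filtered protein in the proximal tubule, whose cells live mainly on fatty acid oxidation. An injured proximal tubule cell lowers these transporters and turns on genes such as Havcr1, Lcn2, Sox9 and Vcam1. The kidney also houses macrophages, dendritic cells and lymphocytes, most of which derive from or are refilled by bone marrow. After a marrow transplant the tubule, vessel and connective tissue cells belong to the host, whereas leukocytes can come from the graft. The share of graft cells among the leukocytes of these kidneys was not measured here. In whole-kidney RNA, more cells of a type and more RNA per cell cannot be told apart.

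Sequencing depth ran from 13332563 counts in Control animal 16 to 19386408 in LOY animal 18. Levels are given as CPM, the counts of a gene scaled to the total of its kidney and adjusted by TMM factors, which ran from 0.884 (LOY animal 8) to 1.12 (LOY animal 10). The 12 libraries differed in the balance of long and short transcripts. The median log2 deviation of genes over 6000 bases minus that of genes under 1500 bases was -1.24 in LOY animal 8, the kidney farthest from the rest. It was -0.20 in Control animal 3, -0.33 to -0.01 in LOY animals 5, 9 and 10, and 0.17 to 0.36 in the 7 animals numbered above 10 (5 Control, 2 LOY). With this balance as a linear term 125 genes rose and 4 fell, against 167 and 9 without it. Of those 167 rises 91 were still called, and of the 9 falls 2. All kept their sign, which was largely given beforehand because the genes were picked from the same 12 kidneys. The balance was spread unevenly over the 2 groups, so its part and that of the genotype cannot be fully told apart. Beside each list's median 2 more stand in square brackets: first that without LOY animals 8 and 10, then that of the animals above number 10 alone. The kidney genes Lrp2, Slc34a1, Umod, Slc12a3, Aqp2 and Nphs1 were detected in all 12 kidneys. Urothelium genes, which come with the renal pelvis, summed to 41.2 to 218 CPM in Control and 92.2 to 362 CPM in LOY kidneys, and their score was highest in Control animals 3 and 16 and LOY animals 8, 9 and 10. The fat cell gene Adipoq ran from 0.327 to 21.3 CPM (median 0.795) in Control and from 0.074 to 16.6 CPM (median 1.36) in LOY kidneys. The Y-linked genes Ddx3y, Uty, Kdm5d and Eif2s3y were present in every kidney, with log2 differences of -0.36 (Kdm5d) to 0.00 (Eif2s3y) and none past the test. Since host cells make up most of a kidney, these genes do not check the genotype of the graft.

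LOY kidneys held more leukocyte, antigen presentation, chemokine and tubular injury transcripts, and few genes passed the test as lower. Of 14978 genes with enough counts to test, 167 (1.11%) were higher and 9 (0.0601%) lower at an adjusted p under 0.05 (edgeR quasi-likelihood test, Benjamini-Hochberg). The balance of rises and falls depended on the test: 2021 genes were higher and 1397 lower at an unadjusted p under 0.05, DESeq2 called 582 and 233, and voom 689 and 373. Of the 167 rises 85 were members of the 60 gene lists used below, which hold 1013 of the 14978 tested genes. The rest were in none of them. The lists were chosen with earlier results of these data known, so this tally is a description only. All 6 LOY kidneys stood above all 6 Control kidneys in 233 genes (1.56%) and below them in 69 (0.461%). Of the 167 rises, 119 separated the groups in this way, as did 6 of the 9 falls. The median log2 fold change of all tested genes was 0.02, and 7838 of them were positive. Control animal 3 was the highest Control kidney in 117 of the 167 rises (70.1%, against 29.3% of all tested genes). Control animal 12 was the lowest in 79 (47.3%, against 18.5%). LOY animal 8 was the highest LOY kidney in 73 of the rises (43.7%, against 31.8% of all tested genes) and LOY animal 10 in 66 (39.5%, against 17.9%). LOY animal 5 was the lowest in 69 (41.3%, against 11.7%). Adjusted p-values were all close to the threshold, the smallest being 0.0146. The number that passed depended on single kidneys. Without Control animal 16 or Control animal 17 no gene did (smallest adjusted p = 0.0628 and 0.0599; 2870 and 2611 genes at an unadjusted p under 0.05). Without LOY animal 10, Control animal 12, Control animal 11 or Control animal 13 the test called 1, 2, 3 and 8 rises, and without Control animal 3 it called 478. Among the genes given below as not past the test, Cd4, Clec10a, Col1a1, Cx3cr1, Klrk1, Myd88, Nox4, Slc5a12, Slc6a19, Slc7a9 and Timp1 passed in that last fit. All 167 rises stayed positive and all 9 falls negative in each of the 12 fits that left out 1 kidney. These genes were picked from the same 12 kidneys, so their kept sign was largely given beforehand and is no separate check. The calls below hold for the full set of kidneys.

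Transcripts shared by all leukocytes were higher in LOY kidneys: 11 of 24 tested genes rose, and all 24 had positive log2 fold changes (median 0.83 [0.70, 0.83]). Ptprc, which encodes the leukocyte surface phosphatase CD45 (chromosome 1, 138062861 to 138175708, GRCm38), ran from 15.0 to 24.2 CPM (median 17.3) in Control and from 25.1 to 37.0 CPM (median 33.0) in LOY kidneys. The groups did not overlap, the lowest LOY kidney being animal 8 and the highest Control kidney animal 3. Its log2 fold change was 0.81 ± 0.14 (SE; adjusted p = 0.0250). Cd53, a tetraspanin of leukocyte membranes, ran from 4.69 to 8.72 CPM (median 6.75) in Control and from 11.2 to 21.2 CPM (median 14.2) in LOY kidneys, again with no overlap (1.09 ± 0.19, adjusted p = 0.0250). Sfpi1, the table's symbol for the gene of the myeloid transcription factor PU.1, rose by 1.20 ± 0.23 (0.80 with the transcript balance as a term), Rac2, a small GTPase of blood cells, by 1.18 ± 0.22, and the cortical actin adaptor Hcls1 by 0.86 ± 0.15. The score of the list, the median over its genes of the log2 deviation in each kidney, lay between -0.68 and -0.04 in Control and between 0.15 and 0.56 in LOY kidneys. The list's median was 0.75 to 0.88 over the fits that left out 1 kidney.

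**Figure D1:**
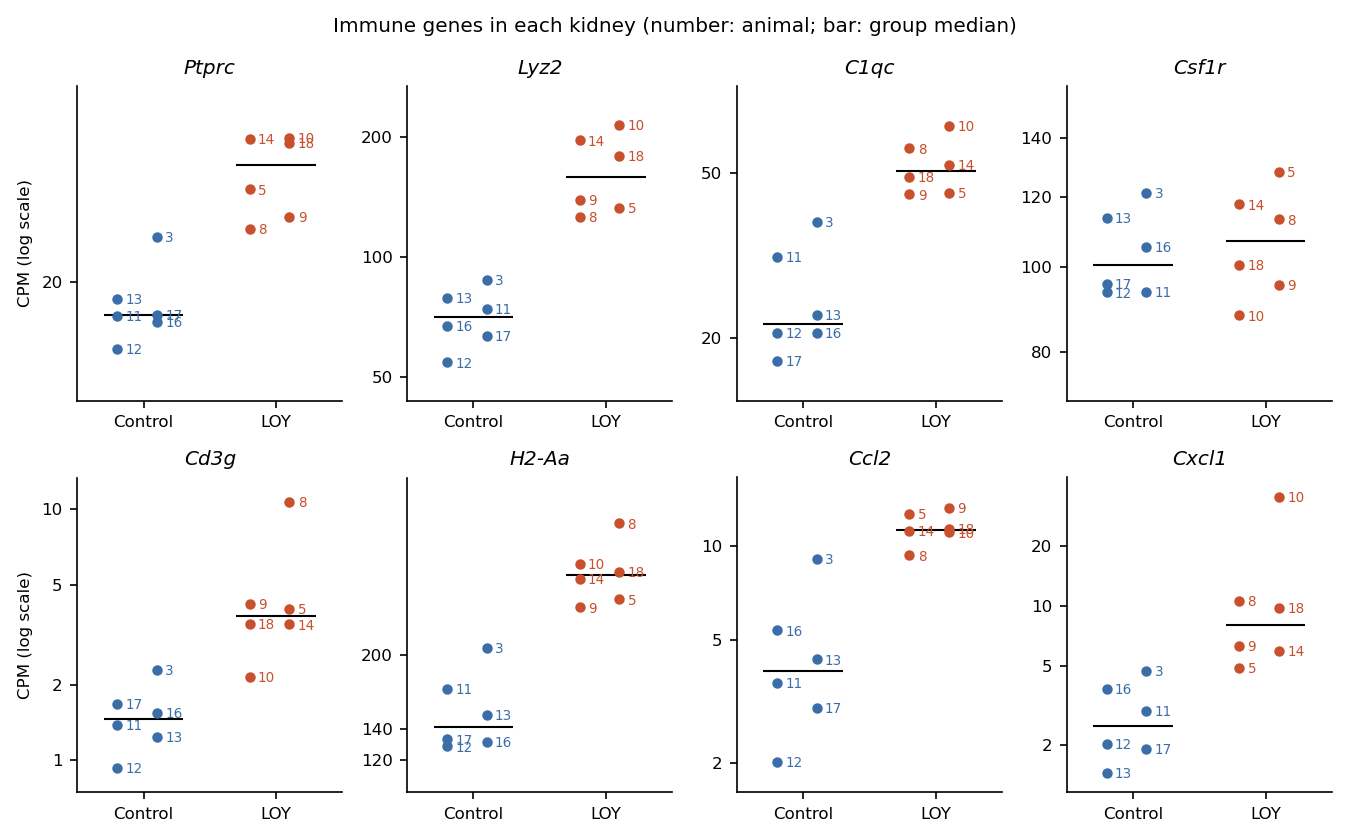
Level of 8 immune genes in each kidney (y axis, CPM on a log scale), with Control kidneys on the left and LOY kidneys on the right of each panel. Each point is 1 kidney labelled by its animal number and the bar is the group median. Ptprc, Lyz2, C1qc, H2-Aa, Ccl2 and Cxcl1 show no overlap between groups, Cd3g overlaps slightly, and Csf1r does not separate them.

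Macrophage genes rose in part. The macrophages of the kidney take up debris through Fc and scavenger receptors and make the C1q subunits of complement. Of 24 tested macrophage genes 8 rose and 24 were positive (median 1.02 [0.83, 1.01]). C1qc, encoding a C1q chain, ran from 17.6 to 38.1 CPM (median 21.6) in Control and from 44.4 to 64.7 CPM (median 50.6) in LOY kidneys, with no overlap and a log2 fold change of 1.05 ± 0.18 (adjusted p = 0.0250). The Fc receptor gene Fcgr3 ran from 5.43 to 9.98 CPM (median 6.47) in Control and from 12.4 to 19.6 CPM (median 14.9) in LOY kidneys, a rise of 1.14 ± 0.17 (adjusted p = 0.0166). Tyrobp, the signalling adaptor of myeloid receptors, rose by 1.21 ± 0.20. Emr1, the gene of the F4/80 antigen, ran from 5.10 to 7.29 CPM (median 5.91) in Control and from 5.85 to 16.8 CPM (median 9.54) in LOY kidneys and did not pass (0.77 ± 0.23, adjusted p = 0.107). Csf1r, the receptor through which macrophages are kept alive, did not pass and differed little between the groups. It ran from 93.6 to 121 CPM (median 101) in Control and from 88.1 to 128 CPM (median 107) in LOY kidneys, with a log2 difference of 0.05 ± 0.11 and a 95% confidence interval of -0.19 to 0.28. That interval lies below the change of Fcgr3, C1qc or Tyrobp, although all are macrophage genes. Cx3cr1, a chemokine receptor of kidney macrophages, was at 0.75 ± 0.21 (adjusted p = 0.0897).

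Genes of blood monocytes and their early progeny were higher as well, with 4 of 11 past the test and all positive (median 1.20 [0.77, 0.99]). Lyz2, the lysozyme of monocytes and macrophages (chromosome 10, 117277331 to 117282321, GRCm38), ran from 54.5 to 87.7 CPM (median 70.7) in Control and from 126 to 215 CPM (median 159) in LOY kidneys. Its groups stood well apart, and its log2 fold change was 1.21 ± 0.15 (adjusted p = 0.0146). Ccr2, the receptor by which monocytes leave the marrow and enter tissue, ran from 10.5 to 18.7 CPM (median 14.9) in Control and from 18.9 to 26.8 CPM (median 22.5) in LOY kidneys (0.63 ± 0.14, adjusted p = 0.0472), also without overlap. Ms4a6c rose by 1.34 ± 0.22 and Plac8 by 1.20 ± 0.25 (0.67 without LOY animals 8 and 10). None of 16 dendritic cell genes passed, although 15 were positive (median 0.75 [0.45, 0.60]). Among them the lectin gene Clec10a ran from 1.01 to 2.81 CPM (median 1.76) in Control and from 3.10 to 5.40 CPM (median 4.17) in LOY kidneys, without overlap, at an adjusted p of 0.0629 (1.14 ± 0.29). Itgax, encoding the integrin CD11c, was at 0.66 ± 0.19 (adjusted p = 0.0990).

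T cell transcripts were low in absolute terms and higher in LOY kidneys: 4 of 17 tested genes rose and all were positive (median 1.25 [1.27, 1.48]). Cd3g, a chain of the T cell receptor complex, ran from 0.93 to 2.29 CPM (median 1.46) in Control and from 2.15 to 10.7 CPM (median 3.76) in LOY kidneys. The lowest LOY kidney lay just under the highest Control kidney, and the log2 fold change was 1.62 ± 0.36 (adjusted p = 0.0457), or 1.01 with the transcript balance as a term. Zap70, the kinase that relays T cell receptor signals, ran from 0.66 to 1.77 CPM (median 1.25) in Control and from 2.32 to 4.03 CPM (median 3.59) in LOY kidneys with no overlap (1.44 ± 0.30, adjusted p = 0.0386). Cd3d rose by 1.43 ± 0.32. The co-receptor genes did not pass: Cd4 was at 1.40 ± 0.39 (adjusted p = 0.0917) and Cd8a at 0.69 ± 0.26 (adjusted p = 0.164). The T cell median was thus not lower in either reduced set. Of 7 tested natural killer and cytotoxic genes only Ccl5, a chemokine stored by these cells, passed; it ran from 3.26 to 6.80 CPM (median 4.81) in Control and from 5.75 to 19.8 CPM (median 11.8) in LOY kidneys (1.30 ± 0.26, adjusted p = 0.0343). The killer receptor gene Klrk1 ran from 0.261 to 1.32 CPM (median 0.737) in Control and from 1.99 to 2.57 CPM (median 2.28) in LOY kidneys, without overlap, and stayed above the threshold (adjusted p = 0.0577). No B or plasma cell gene passed (9 of 10 positive, median 0.83 [0.70, 0.84]). Of the 22 listed, 4 had too few counts and 8, all immunoglobulin constant genes, were not found under the symbols searched. The T cell receptor constant genes Trac, Trbc1 and Trbc2 were not found either. Igj, which encodes the J chain of secreted antibodies, ran from 10.6 to 74.5 CPM (median 39.4) in Control and from 29.0 to 106 CPM (median 75.4) in LOY kidneys, with a wide overlap (0.85 ± 0.41, adjusted p = 0.227). Of 16 neutrophil genes 13 had too few counts to test, as had 10 of 11 mast cell and eosinophil genes. Among the tested ones S100a8 reached no more than 1.70 CPM in a LOY kidney (0.61 ± 0.58, adjusted p = 0.512).

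The phagocyte oxidase makes superoxide from a membrane core and cytosolic subunits. Cybb, the catalytic subunit, ran from 9.28 to 12.0 CPM (median 11.3) in Control and from 14.7 to 21.2 CPM (median 17.0) in LOY kidneys, with no overlap (0.66 ± 0.13, adjusted p = 0.0343). Ncf1, a cytosolic subunit, rose by 0.94 ± 0.21, also without overlap. Ncf4, another, ran from 0.807 to 5.25 CPM (median 1.86) in Control and from 4.26 to 8.29 CPM (median 6.64) in LOY kidneys (1.51 ± 0.35, adjusted p = 0.0495), and only Control animal 3 reached into the LOY range. Cyba, the membrane partner of Cybb that tubule cells also use, was at 0.24 ± 0.20 (adjusted p = 0.455). Nox4, a catalytic subunit of tubule cells drawn with this list, was lower and did not pass, at -0.69 ± 0.22 (adjusted p = 0.121). Of 29 lysosome genes 1 passed, 13 were positive and the median was -0.08 [-0.02, 0.02]. The gene that passed was Ctss, the cathepsin of antigen-presenting cells, at 18.4 to 34.7 CPM (median 25.4) in Control and 47.5 to 68.6 CPM (median 53.6) in LOY kidneys, without overlap (1.11 ± 0.15, adjusted p = 0.0146).

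Among 23 genes of Toll-like receptor and inflammasome signalling 3 rose and 20 were positive (median 0.67 [0.53, 0.63]). Il1b, the cytokine that inflammasomes release, ran from 0.523 to 1.74 CPM (median 1.01) in Control and from 2.15 to 3.43 CPM (median 2.94) in LOY kidneys, with no overlap (1.39 ± 0.30, adjusted p = 0.0432). The receptor gene Tlr1 rose by 0.96 ± 0.20 and the inflammatory caspase gene Casp4 by 1.22 ± 0.27 (0.73 without LOY animals 8 and 10 and 0.73 above number 10), whereas the adaptor Myd88 was at 0.46 ± 0.12 (adjusted p = 0.0620). Of 40 cytokine receptor and JAK-STAT genes 2 rose (median 0.39 [0.23, 0.33]): Il10ra, the receptor of interleukin-10, by 0.90 ± 0.14, and Osmr, the oncostatin M receptor, by 0.80 ± 0.17. In the TNF superfamily 2 of 19 rose (median 0.36 [0.25, 0.38]): the T cell co-stimulator Tnfrsf4 by 1.48 ± 0.28 and the TWEAK receptor Tnfrsf12a, a gene of injured tubules, by 1.17 ± 0.25 (0.77 without LOY animals 8 and 10).

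NF-kB is a family of dimers that inhibitor proteins hold in the cytoplasm until a signal frees them; it then turns on chemokine, adhesion and antigen presentation genes and its own inhibitors. Of 20 genes of the pathway 4 rose and 17 were positive (median 0.29 [0.23, 0.45]). Those that rose were the precursor subunit Nfkb2, the inhibitor Nfkbie, the nuclear cofactor Bcl3 and the signalling adaptor Traf1. Nfkbie ran from 9.05 to 11.5 CPM (median 9.50) in Control and from 11.5 to 23.01 CPM (median 17.5) in LOY kidneys, which met without overlapping (0.81 ± 0.16, adjusted p = 0.0330). Bcl3 ran from 12.8 to 23.1 CPM (median 14.3) in Control and from 23.02 to 49.9 CPM (median 30.8) in LOY kidneys (1.07 ± 0.21, adjusted p = 0.0330), with Control animal 3 inside the LOY range. Traf1 rose by 1.26 ± 0.25 and Nfkb2 by 0.70 ± 0.16, while Nfkb1 was at 0.22 ± 0.11 (adjusted p = 0.241) and the inhibitor Nfkbia at 0.29 ± 0.13 (adjusted p = 0.202).

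The promoters of these rises were searched for the letters that NF-kB dimers prefer, and 4 that hold them are shown because they belong to a chemokine, a macrophage growth factor, the light chain of MHC class I and a subunit of NF-kB itself. The motif, GGGA and TTTCC with 1 base of any kind between them (either strand), stands in the 250 bases before a listed start of 5 of the 130 rises with a RefSeq promoter (3.85%), of 53 of 11540 tested genes with one (0.459%) and in 117 of all 32851 promoters (0.356%). Genes can have several starts, so the share of tested genes is the one counted in the same way. Only 77.8% of the rises and 77.0% of the tested genes had a promoter in the table, under the 80% set for comparing shares, so such a comparison is void and the shares are a description. The fifth gene is Birc5, the survivin gene of dividing cells, which rose by 1.49 ± 0.33 without overlap (adjusted p = 0.0432) and whose sequence is not shown. Of the 4 genes shown only Cxcl1 is among the 20 largest rises; Csf1, B2m and Nfkb2 were chosen after their values were seen, although the log2 fold change of Birc5 is larger than theirs. The Nfkb2 window lies before the innermost of its 3 RefSeq starts, inside the GENCODE M21 gene, which begins at 46304320. Sequences are from RefSeq (GRCm38.p6), read 5′ to 3′ on the gene's strand, with the match in capitals.
Cxcl1, chr5:90890995-90891244, plus strand: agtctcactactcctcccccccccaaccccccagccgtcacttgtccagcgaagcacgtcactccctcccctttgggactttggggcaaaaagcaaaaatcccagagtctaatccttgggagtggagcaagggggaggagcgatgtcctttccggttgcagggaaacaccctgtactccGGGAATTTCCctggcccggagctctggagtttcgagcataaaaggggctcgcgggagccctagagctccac
Csf1, chr3:107760470-107760719, minus strand: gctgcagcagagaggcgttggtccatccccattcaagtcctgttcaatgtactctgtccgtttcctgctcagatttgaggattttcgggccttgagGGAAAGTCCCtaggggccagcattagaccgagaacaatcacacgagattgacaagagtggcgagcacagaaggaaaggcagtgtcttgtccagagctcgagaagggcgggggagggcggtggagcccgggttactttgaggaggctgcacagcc
B2m, chr2:122147437-122147686, plus strand: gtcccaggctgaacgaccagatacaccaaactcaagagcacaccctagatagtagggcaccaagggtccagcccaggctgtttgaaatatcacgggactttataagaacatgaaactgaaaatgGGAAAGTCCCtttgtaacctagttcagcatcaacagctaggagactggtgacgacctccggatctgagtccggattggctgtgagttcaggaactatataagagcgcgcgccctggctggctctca
Nfkb2, chr19:46305680-46305929, plus strand: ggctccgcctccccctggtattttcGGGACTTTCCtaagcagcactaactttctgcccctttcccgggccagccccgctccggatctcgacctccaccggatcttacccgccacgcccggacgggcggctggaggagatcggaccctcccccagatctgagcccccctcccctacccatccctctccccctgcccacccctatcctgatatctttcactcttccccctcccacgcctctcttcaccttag
Beside these, PU.1's GAGGAAGT stood in 11 of the 130 (8.46%, against 2.94% of tested genes and 2.44% of all promoters), GAAA and GAAA with 2 bases between them, the core of interferon-stimulated response elements, in 10 (7.69%, against 3.28% and 2.98%), and TGANTCA of AP-1 in 12 (9.23%, against 5.80% and 6.75%). The Y box CTGATTGG of MHC class II promoters stood in 10 (7.69%, against 5.93% and 3.83%); its reverse complement holds CCAAT, which stood in 50 (38.5%, against 39.7% and 33.9%). A match describes the letters only, and binding was not measured. The largest rise, Mmp7, has a PU.1 match in the same window, which is shown because of the size of the rise. That window also holds AP-1 and CCAAT matches, which are left in lower case.
Mmp7, chr9:7691840-7692089, plus strand: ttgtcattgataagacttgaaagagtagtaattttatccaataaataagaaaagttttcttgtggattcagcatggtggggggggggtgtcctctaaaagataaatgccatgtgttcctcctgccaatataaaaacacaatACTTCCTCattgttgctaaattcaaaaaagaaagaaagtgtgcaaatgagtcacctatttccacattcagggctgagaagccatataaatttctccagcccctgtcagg

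Chemokines guide leukocytes into tissue, and 7 of 27 tested ligand genes rose, with 26 positive (median 1.06 [0.81, 0.96]). Cxcl1, a neutrophil attractant, ran from 1.44 to 4.73 CPM (median 2.49) in Control and from 4.88 to 35.6 CPM (median 8.04) in LOY kidneys. The groups did not overlap, the highest kidney being LOY animal 10, and the log2 fold change was 2.12 ± 0.48 (adjusted p = 0.0472). Without that animal it was 1.41, and without LOY animals 8 and 10 it was 1.25. Ccl2, the ligand of Ccr2, ran from 2.02 to 9.09 CPM (median 3.97) in Control and from 9.32 to 13.3 CPM (median 11.2) in LOY kidneys (1.33 ± 0.28, adjusted p = 0.0375). Its LOY kidneys lay close together and just above Control animal 3. Ccl8, a monocyte and T cell attractant, ran from 0.31 to 2.44 CPM (median 1.26) in Control and from 2.51 to 11.4 CPM (median 5.03) in LOY kidneys (2.23 ± 0.45, adjusted p = 0.0343). Cxcl13, which draws B cells, ran from 0.981 to 2.57 CPM (median 1.94) in Control and from 2.90 to 8.55 CPM (median 5.90) in LOY kidneys (1.62 ± 0.32, adjusted p = 0.0330). Ccl9 rose by 1.37 ± 0.21 and Cxcl16, the ligand of Cxcr6, by 0.79 ± 0.14. The interferon-induced Cxcl10 was at 0.78 ± 0.26 (adjusted p = 0.132). Of 14 receptor genes only Ccr2 passed (median 0.62 [0.41, 0.61]).

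Some adhesion genes and macrophage growth factor genes also rose. Of 23 adhesion genes 4 passed (Cd44, Vcam1, Icam1 and Itgb2; list median 0.50 [0.27, 0.47]). Vcam1, an integrin ligand of activated endothelium and of injured tubules, ran from 25.1 to 52.9 CPM (median 28.4) in Control and from 62.7 to 122 CPM (median 72.6) in LOY kidneys, without overlap (1.30 ± 0.22, adjusted p = 0.0250). Cd44, a hyaluronan receptor, ran from 7.32 to 13.7 CPM (median 8.90) in Control and from 14.9 to 35.3 CPM (median 23.3) in LOY kidneys (1.33 ± 0.21, adjusted p = 0.0230). Icam1 rose by 0.80 ± 0.16 and its leukocyte partner Itgb2 by 0.84 ± 0.17. Both ligands of Csf1r rose, while the receptor did not pass. Csf1 ran from 15.1 to 32.2 CPM (median 21.6) in Control and from 32.3 to 46.9 CPM (median 42.2) in LOY kidneys, the highest Control and lowest LOY kidney nearly touching (0.91 ± 0.16, adjusted p = 0.0250). Il34, which tubule cells make, ran from 29.7 to 41.7 CPM (median 36.1) in Control and from 45.3 to 86.7 CPM (median 60.4) in LOY kidneys (0.83 ± 0.16, adjusted p = 0.0297).

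MHC class II molecules present peptides to helper T cells, and 6 of 10 tested genes of this route rose, with all positive (median 0.85 [0.71, 0.93]). H2-Aa, a class II chain, ran from 128 to 207 CPM (median 141) in Control and from 252 to 379 CPM (median 294) in LOY kidneys, without overlap (0.96 ± 0.14, adjusted p = 0.0166). Cd74, the invariant chain that fills the groove during assembly, ran from 266 to 509.6 CPM (median 343) in Control and from 529 to 939 CPM (median 644) in LOY kidneys (0.93 ± 0.17, adjusted p = 0.0269). H2-Eb1 rose by 0.91 ± 0.15, H2-Ab1 by 0.79 ± 0.14, and the peptide loading gene H2-DMb2 by 1.45 ± 0.27. Ciita, the coactivator that class II genes need, was at 0.10 ± 0.26 (95% confidence interval -0.45 to 0.65, adjusted p = 0.824), running from 6.87 to 14.2 CPM (median 9.45) in Control and from 5.62 to 17.2 CPM (median 10.00) in LOY kidneys. In the class I route 4 of 18 genes rose and all were positive (median 0.51 [0.42, 0.53]). B2m, the light chain, ran from 259 to 432 CPM (median 301) in Control and from 464 to 784 CPM (median 569) in LOY kidneys with no overlap (0.90 ± 0.16, adjusted p = 0.0250). The class I heavy chain H2-K1 rose by 0.58 ± 0.13, H2-Q7 by 0.82 ± 0.18 (0.54 without LOY animals 8 and 10, 0.53 with the transcript balance as a term) and the immunoproteasome subunit Psmb9 by 0.95 ± 0.20; H2-D1 was at 0.35 ± 0.13 (adjusted p = 0.154). Class I heavy chains are near-identical copies, so their counts may be split between genes. Of 16 tested genes in the list of interferon-induced GTPases, which includes Irf1, Gbp3 (0.80 ± 0.16) and Tgtp2 (0.75 ± 0.17) rose (list median 0.55 [0.63, 0.86]). Ubd, a ubiquitin-like protein induced by interferon gamma and TNF, ran from 2.67 to 5.84 CPM (median 3.48) in Control and from 6.00 to 21.3 CPM (median 12.4) in LOY kidneys, without overlap (1.73 ± 0.30, adjusted p = 0.0250).

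**Figure D2:**
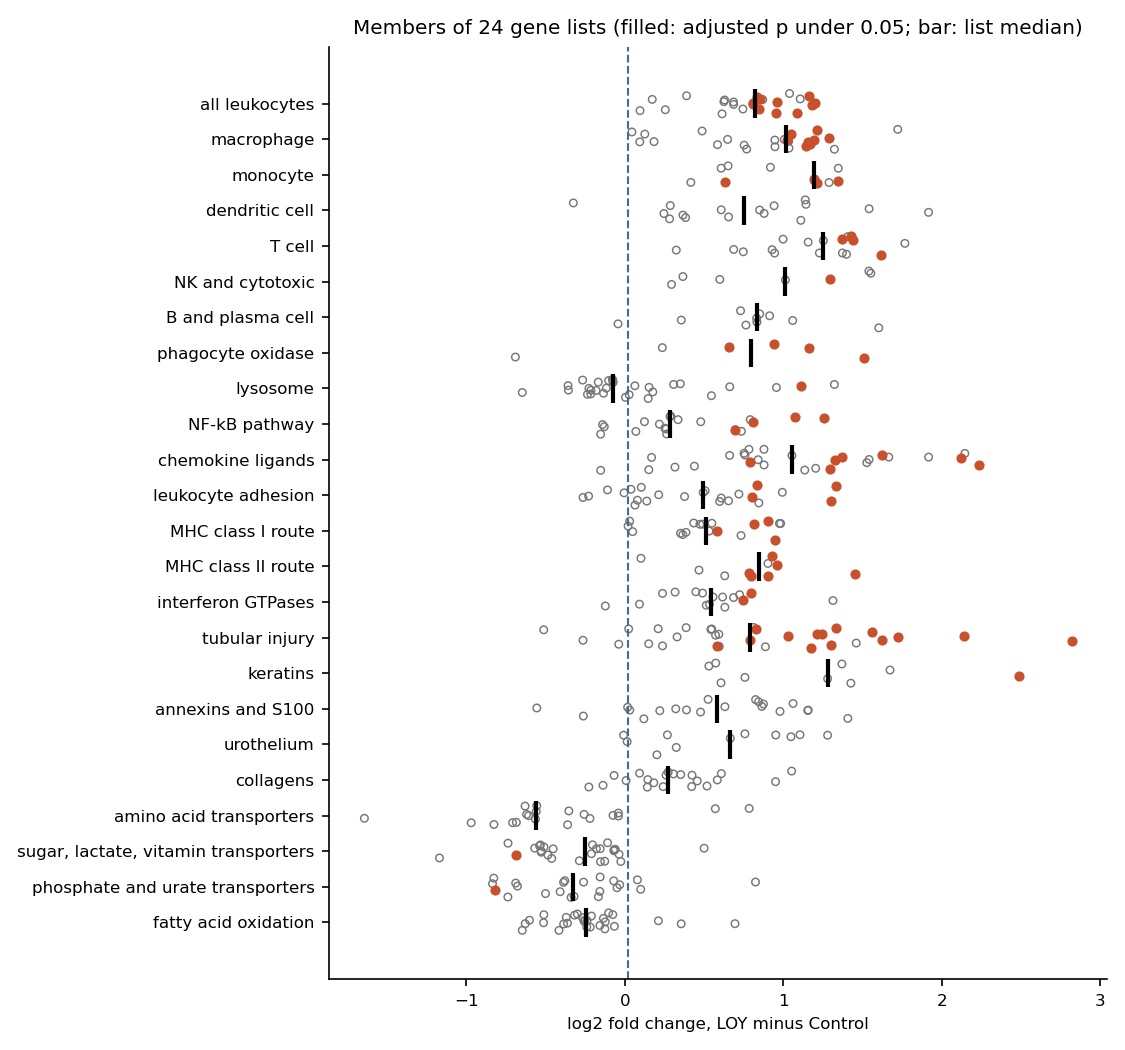
Log2 fold change (LOY minus Control, x axis) of every tested gene of 24 lists (y axis). Filled points passed the test, open points did not, and the black bar is the list median; the dashed line is the median of all tested genes (0.02). Leukocyte, chemokine and injury lists lie to the right, lysosome genes lie around the dashed line, and proximal tubule lists lie slightly to the left with almost no filled points.

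Tubular injury genes were higher in LOY kidneys: 14 of 31 rose and 28 were positive (median 0.79 [0.55, 0.78]). Some members, such as Vcam1, Cd44, Tnfrsf12a, Il34 and Mmp7, also belong to the adhesion, TNF, macrophage growth or metalloprotease lists. Their rises are counted in each, so the tallies are not separate. Havcr1, encoding the phagocytic receptor KIM-1 of injured proximal tubules (chromosome 11, 46735080 to 46779578, GRCm38), ran from 17.7 to 77.4 CPM (median 23.2) in Control and from 74.1 to 137 CPM (median 81.7) in LOY kidneys. Only Control animal 3 reached the LOY range, and the log2 fold change was 1.56 ± 0.33 (adjusted p = 0.0378). Lcn2, encoding the iron carrier NGAL, ran from 10.6 to 54.1 CPM (median 21.3) in Control and from 37.3 to 207 CPM (median 79.0) in LOY kidneys (2.14 ± 0.45, adjusted p = 0.0386), and stood at 1.36 without LOY animals 8 and 10. Sox9, a transcription factor of regenerating tubule cells, ran from 1.44 to 3.07 CPM (median 2.68) in Control and from 3.70 to 16.5 CPM (median 6.36) in LOY kidneys, with no overlap (1.72 ± 0.35, adjusted p = 0.0343). Spp1, which encodes osteopontin, ran from 1283 to 2478 CPM (median 1588) in Control and from 2676 to 6688 CPM (median 3317) in LOY kidneys, again apart (1.25 ± 0.24, adjusted p = 0.0330). Vim, the intermediate filament of dedifferentiated tubules and of connective tissue, rose by 1.03 ± 0.24 (0.62 without LOY animals 8 and 10, 0.66 above number 10), the galectin gene Lgals3 by 1.22 ± 0.28 (0.81 without these 2), and the stress transcription factor genes Atf3 and Klf6 by 1.62 ± 0.35 and 0.79 ± 0.17. Timp1, also a marker of damage, was at 1.46 ± 0.52 and did not pass (adjusted p = 0.152); it ran from 0.87 to 12.0 CPM (median 1.90) in Control, where animal 3 was highest, and from 5.26 to 13.6 CPM (median 9.49) in LOY kidneys. Without Control animal 3 it was at 2.41 (adjusted p = 0.0044).

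The largest rises were in genes of low level. Mmp7, a matrix protease that tubules make under Wnt signalling (chromosome 9, 7692090 to 7699585, GRCm38), ran from 0.132 to 0.87 CPM (median 0.423) in Control and from 1.48 to 5.38 CPM (median 3.32) in LOY kidneys. Its groups were far apart and its log2 fold change was 2.82 ± 0.45 (adjusted p = 0.0230), with 2.61 to 3.12 over the fits that left out 1 kidney. Il1f6, which encodes the epithelial cytokine IL-36 alpha, ran from 0.131 to 0.924 CPM (median 0.437) in Control and from 1.18 to 8.44 CPM (median 1.98) in LOY kidneys (2.66 ± 0.58, adjusted p = 0.0432); the highest was LOY animal 10. Krt20, a urothelial keratin also made by injured tubules, ran from 0.981 to 7.24 CPM (median 2.84) in Control and from 3.96 to 48.6 CPM (median 14.5) in LOY kidneys (2.49 ± 0.56, adjusted p = 0.0457). It was the only one of 9 tested keratins to pass. The keratin median moved with the kidneys used: 1.28 [0.44, 0.49]. So did that of the urothelium list, which shares keratins with it: 0.67 [-0.08, 0.14]. The part of renal pelvis in the keratin values was not tested. Krt8 and Krt18, the keratin pair of simple epithelia, were at 0.57 ± 0.18 (adjusted p = 0.118) and 1.37 ± 0.42 (adjusted p = 0.117). No gene of 20 annexins and S100 proteins passed (median 0.58 [0.22, 0.28]).

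Other large rises came from immune and epithelial genes, all but Pf4 outside the lists. Fcrls, an Fc receptor-like gene of resident macrophages and microglia, ran from 0.587 to 2.66 CPM (median 0.861) in Control and from 2.91 to 8.38 CPM (median 4.58) in LOY kidneys, without overlap (2.05 ± 0.37, adjusted p = 0.0250). Gabrp, a GABA receptor subunit gene of epithelia, ran from 0.981 to 1.78 CPM (median 1.40) in Control and from 2.64 to 10.7 CPM (median 3.91) in LOY kidneys, also apart (1.86 ± 0.33, adjusted p = 0.0250). Dnase1l3, encoding the DNase that macrophages and dendritic cells secrete, rose by 1.85 ± 0.37, and Bcl2a1b, a survival gene of leukocytes with near-identical copies, by 1.62 ± 0.34. The small heat shock gene Hspb1 ran from 24.5 to 88.3 CPM (median 33.8) in Control and from 68.7 to 213 CPM (median 103) in LOY kidneys, Control animal 3 lying within the LOY range (1.52 ± 0.34, adjusted p = 0.0467). The uncharacterised genes BC147527 and LOC100861753 rose by 1.73 ± 0.38 and 1.68 ± 0.36, from at most 1.03 and 0.813 CPM in a Control kidney. Pf4, a chemokine of platelets that macrophages also make, rose by 1.45 ± 0.32 (adjusted p = 0.0451), while the other 5 tested platelet and red cell genes did not pass.

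**Figure D3:**
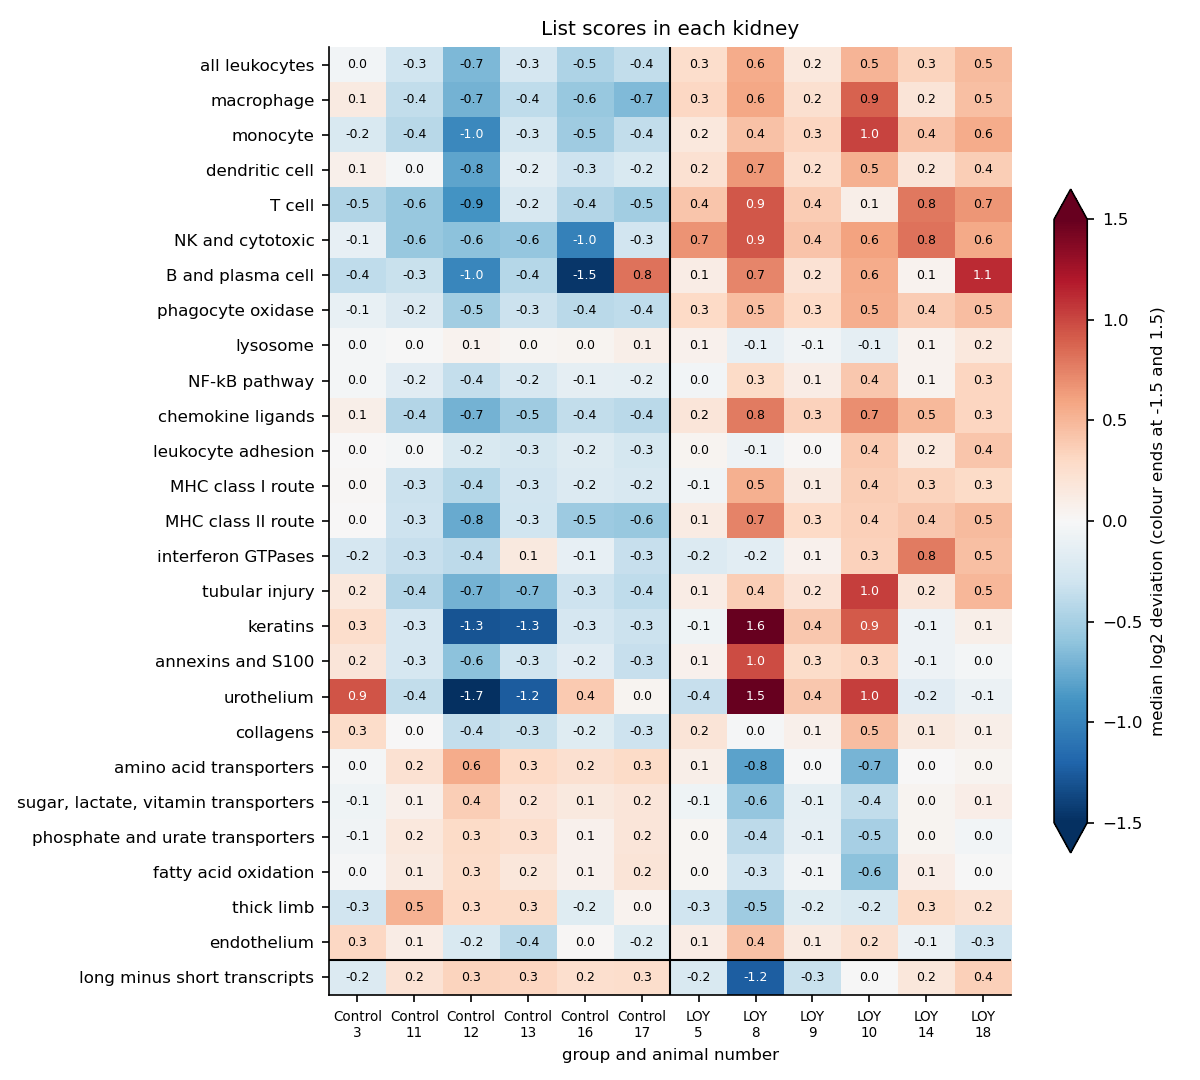
Score of 26 gene lists in each kidney (rows are lists, columns are kidneys ordered by group and animal number; colour is the median log2 deviation of the list's genes from their mean over the 12 kidneys), with the balance of long against short transcripts in the lowest row. Leukocyte, monocyte and T cell scores were positive in all 6 LOY kidneys and negative in all 6 Control kidneys, whereas amino acid, sugar and phosphate transporter scores were lowest in LOY animals 8 and 10.

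Some complement and metalloprotease genes rose. No collagen or other matrix gene tested passed, although most leaned higher. Over all tested genes 1.11% rose, and lists of this size can hold none at that share. C3, the central complement protein, ran from 63.7 to 121 CPM (median 79.2) in Control and from 119 to 333 CPM (median 159.6) in LOY kidneys (1.21 ± 0.24, adjusted p = 0.0343), the groups meeting at Control animal 3 and LOY animal 5. Cfp, encoding properdin, rose by 0.99 ± 0.22 and the protease gene C1s by 0.54 ± 0.12, making 3 of 15 complement genes (median 0.52 [0.40, 0.51]). Of 18 metalloprotease and inhibitor genes the membrane protease Mmp14 (1.10 ± 0.22, 0.70 without LOY animals 8 and 10) and the leukocyte protease Adam8 (1.33 ± 0.30) rose beside Mmp7. None of 21 collagens passed, with 18 positive (median 0.27 [0.22, 0.28]). Col1a1, the main fibrillar collagen, ran from 33.6 to 90.9 CPM (median 42.7) in Control and from 72.9 to 173 CPM (median 98.5) in LOY kidneys and was just short of the threshold (1.05 ± 0.25, adjusted p = 0.0508). Without Control animal 3 it was at 1.31 (adjusted p = 0.0074). No gene of 26 other matrix genes or of 18 fibroblast and mural cell genes passed (medians 0.37 [0.20, 0.31] and 0.34 [0.12, 0.11]). Of these, 23 and 15 were positive. Of the epidermal growth factor axis Nrg1, a ligand of ErbB receptors, rose by 0.61 ± 0.12. Egf, which the thick ascending limb makes, ran from 312 to 1376 CPM (median 1038) in Control and from 223 to 783 CPM (median 356) in LOY kidneys, a log2 difference of -1.01 ± 0.37 that did not pass (adjusted p = 0.159).

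The 9 falls were smaller than the rises (median log2 fold change -0.73, against 1.06). Kcnt1, a sodium-activated potassium channel gene (chromosome 2, 25863734 to 25918273, GRCm38), ran from 29.0 to 71.1 CPM (median 54.7) in Control and from 21.8 to 25.7 CPM (median 24.9) in LOY kidneys. The 6 LOY kidneys were close together and all lay below the lowest Control kidney, animal 3; the log2 fold change was -1.12 ± 0.16 (adjusted p = 0.0166). Irs2, the insulin receptor substrate, ran from 8.94 to 17.6 CPM (median 14.5) in Control and from 4.68 to 9.71 CPM (median 5.49) in LOY kidneys (-1.16 ± 0.21, adjusted p = 0.0250), with LOY animal 18 above Control animal 3. Slc17a4, an organic anion and phosphate transporter gene, ran from 4.95 to 7.59 CPM (median 6.77) in Control and from 3.11 to 4.19 CPM (median 3.77) in LOY kidneys, without overlap (-0.82 ± 0.17, adjusted p = 0.0365). Adck3, the table's symbol for Coq8a, a kinase-like gene of coenzyme Q synthesis, ran from 143 to 197 CPM (median 174) in Control and from 64.8 to 127 CPM (median 108) in LOY kidneys (-0.73 ± 0.16, adjusted p = 0.0432). It was the only one of 13 coenzyme Q genes past the test (median -0.03 [-0.08, -0.12]). Slc5a6, the sodium-coupled vitamin transporter for biotin and pantothenate, fell from 33.7 to 52.6 CPM (median 44.6) in Control to 21.6 to 35.5 CPM (median 26.3) in LOY kidneys (-0.68 ± 0.15, adjusted p = 0.0439). Dixdc1, a Wnt pathway gene, was at -0.60 ± 0.14, the microtubule gene Eml5 at -0.51 ± 0.12 (-0.31 above number 10) and the pleckstrin homology gene Plekha6 at -0.47 ± 0.11, each past the test (adjusted p = 0.0467, 0.0495 and 0.0487).

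**Figure D4:**
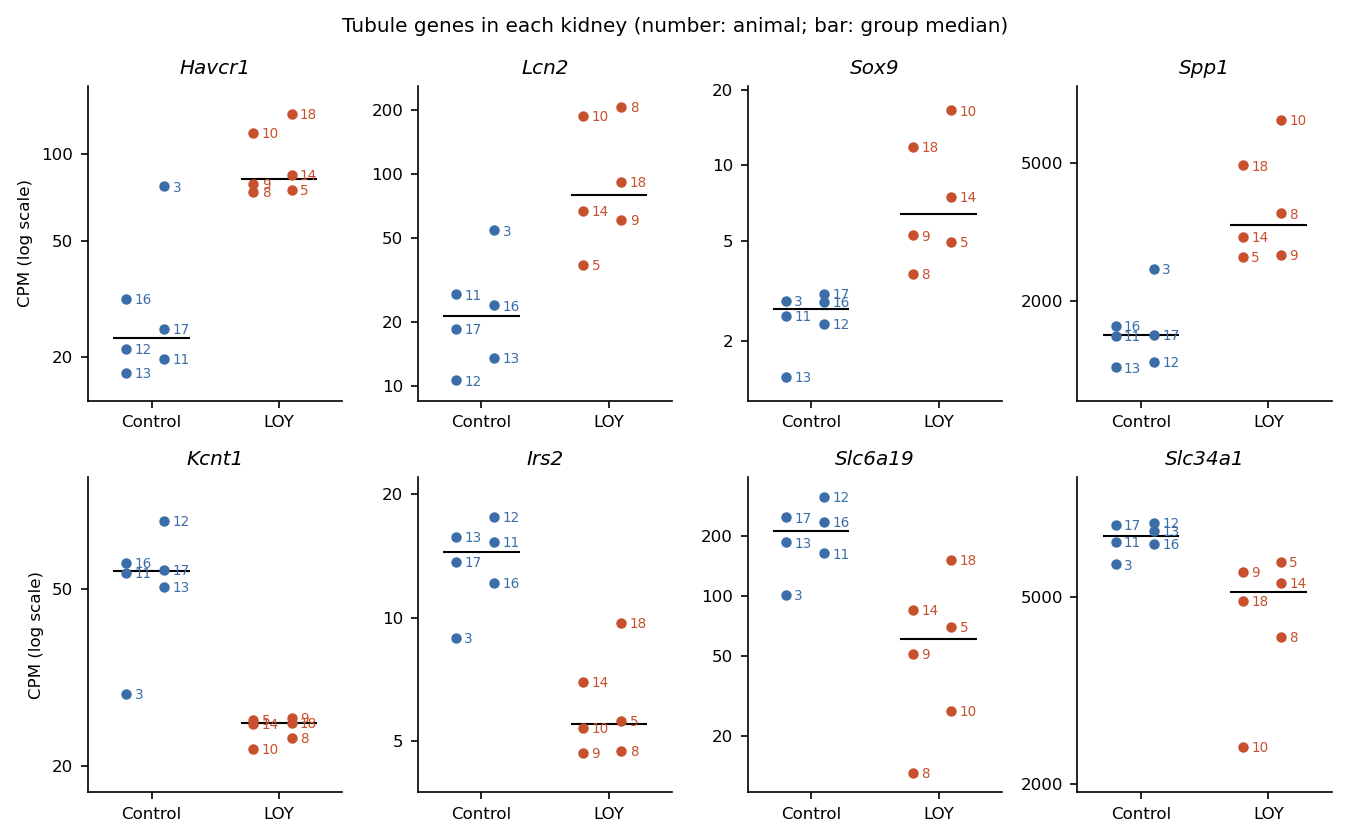
Level of 8 tubule genes in each kidney (y axis, CPM on a log scale), drawn as in the plot of immune genes, with the injury genes Havcr1, Lcn2, Sox9 and Spp1 above and Kcnt1, Irs2, Slc6a19 and Slc34a1 below. Sox9, Spp1 and Kcnt1 separate the groups, Havcr1 and Lcn2 overlap through Control animal 3, and in Slc34a1 the lowest kidneys are LOY animals 8 and 10.

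Transporter genes of the proximal tubule leaned lower in LOY kidneys, and nearly all fell short of the test. Of 20 amino acid transporter genes none passed and 18 were negative (median -0.56 [-0.30, -0.31]). Slc6a19, the main neutral amino acid carrier of the brush border, ran from 101 to 315 CPM (median 211) in Control and from 13.0 to 152 CPM (median 61.0) in LOY kidneys, overlapping (-1.64 ± 0.45, adjusted p = 0.0860). Slc7a9, the cystine carrier subunit, ran from 152 to 224 CPM (median 197) in Control and from 68.4 to 152 CPM (median 136) in LOY kidneys (-0.71 ± 0.18, adjusted p = 0.0686). The score was lowest in LOY animals 8 and 10 (-0.80 and -0.70), and the other 4 LOY kidneys lay between -0.01 and 0.08, beside Control animal 3 at -0.02 and the other 5 Control kidneys at 0.23 to 0.55. Of 26 sugar, lactate and vitamin transporters 25 were negative and Slc5a6 alone passed (median -0.25 [-0.18, -0.16]). Slc5a12, the lactate carrier, ran from 145 to 357 CPM (median 269.9) in Control and from 49.4 to 197 CPM (median 136) in LOY kidneys (-1.17 ± 0.29, adjusted p = 0.0636). Slc5a2, encoding the glucose carrier SGLT2, was at -0.74 ± 0.24 (adjusted p = 0.132). In the phosphate and urate list Slc17a4 alone passed (22 tested, median -0.33 [-0.19, -0.22]). Slc34a1, the main phosphate carrier, ran from 5869 to 7186 CPM (median 6733) in Control and from 2400 to 5933 CPM (median 5137) in LOY kidneys (-0.50 ± 0.19, adjusted p = 0.167). Lrp2, the endocytic receptor megalin, was at -0.67 ± 0.25 (adjusted p = 0.164) in a list of 21 uptake and brush border genes of which none passed (median -0.26 [-0.12, -0.15]). Among 16 transcription factors and cofactors of this segment 14 were negative and none passed (median -0.40 [-0.35, -0.25]); Hnf4a was at -0.28 ± 0.16 and Vdr, the vitamin D receptor, at -0.44 ± 0.13 (adjusted p = 0.286 and 0.0950).

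Metabolic genes of the same cells leaned lower by small amounts. Of 28 fatty acid oxidation genes 25 were negative and none passed (median -0.25 [-0.13, -0.16]). Cpt1a, which commits fatty acids to the mitochondrion, ran from 369 to 707 CPM (median 580.2) in Control and from 187 to 587 CPM (median 327) in LOY kidneys (-0.65 ± 0.24, adjusted p = 0.164). Of 43 amino acid breakdown genes 37 were negative and none passed (median -0.30 [-0.16, -0.22]). Peroxisome and citric acid cycle lists had medians of -0.21 [-0.14, -0.17] (33 genes) and -0.19 [-0.14, -0.16] (20 genes) with none past the test. In the gluconeogenesis and insulin list Irs2 alone passed (26 tested, median -0.12 [-0.09, -0.10]). Pck1, the gene of the gluconeogenic enzyme PEPCK and also a fat cell gene, leaned the other way at 0.81 ± 0.31 (adjusted p = 0.170). LOY animal 10 was highest at 4370 CPM and also had the highest Adipoq of the LOY kidneys. Control animal 3, with the highest Adipoq of all kidneys (21.3 CPM), had the lowest Pck1 of all (739 CPM). The part of fat tissue in the Pck1 values was not tested. Redox genes controlled by Nrf2 had a median of 0.16 [0.07, -0.03] and none of 23 passed.

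**Figure D5:**
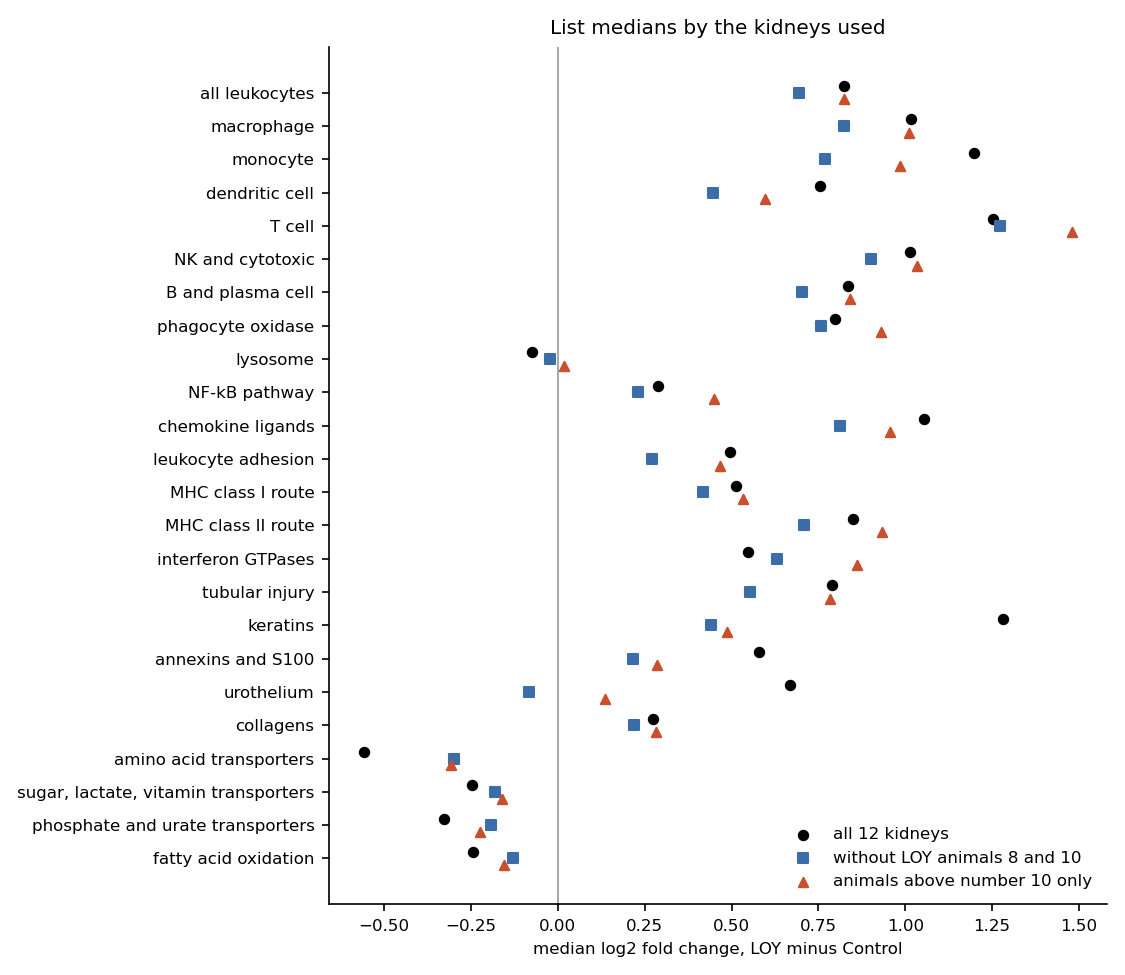
Median log2 fold change (LOY minus Control, x axis) of 24 lists (y axis) in all 12 kidneys, without LOY animals 8 and 10, and in the animals above number 10 (5 Control and 2 LOY kidneys). Leukocyte, macrophage and T cell medians lie between 0.70 and 1.48 in the 3 fits, the keratin, annexin and urothelium medians fall, and proximal tubule medians move towards 0.

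Beyond the proximal tubule no list of the nephron held a gene past the test. Over all tested genes 1.11% rose and 0.0601% fell. Lists of this size can hold none at those shares, so this is no contrast with the proximal tubule. The median was -0.27 [-0.16, -0.03] over 14 thick limb genes, -0.29 [-0.27, -0.27] over 16 genes of the distal convoluted tubule, -0.03 [-0.03, 0.03] over 16 principal cell genes and -0.16 [-0.18, -0.10] over 15 intercalated cell genes. In that order 10, 12, 9 and 11 genes were negative. Slc12a3, the thiazide-sensitive carrier of the distal convoluted tubule, ran from 459 to 873 CPM (median 695) in Control and from 371 to 692 CPM (median 410.4) in LOY kidneys (-0.49 ± 0.20, adjusted p = 0.174). Umod, the urinary protein of the thick limb, ran from 1622 to 5251 CPM (median 3790) in Control and from 1410 to 4943 CPM (median 2247) in LOY kidneys, overlapping almost fully (-0.37 ± 0.35, adjusted p = 0.513). Podocyte and endothelial genes had medians of 0.16 [0.07, 0.09] (15 genes) and 0.19 [-0.02, -0.12] (17 genes), none past the test.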

How the data were processed

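Total RNA of 12 kidneys, extracted with QIAzol and RNeasy columns and sequenced by Novogene (NovaSeq X) per the labels, was given by the authors as counts per gene. Per the submitters' processing notes the genome build was mm10; the sources used here name no aligner, counter, annotation or strand setting. The deposited counts named 26608 genes, of which 5629 had no count. Counts labelled MissingGeneID rather than with a gene symbol (0.223% to 0.401% of each kidney's counts) were left out. The share of reads assigned to no gene was not given with the counts. Replicates were checked as distinct libraries: over 30 pairs the median squared count difference was at least 4.00 times its Poisson expectation.

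Groups followed the labels. Each gene's counts went to edgeR 4.0.16 (R 4.3.3) and its robust quasi-likelihood F test after TMM scaling and a filterByExpr filter (minimum count 10, minimum total 15). P-values were adjusted by Benjamini-Hochberg over 14978 genes, with a threshold of 0.05. SEs were taken as the log2 fold change divided by the root of its F. P-values measure the spread between animals, 1 library each. Counts, scaled to CPM, set the precision of low levels. Scores of a list are medians of its genes' log2 CPM differences from the mean of the 12 kidneys (prior count 2). Alternatives were median-ratio, upper-quartile and no scaling, no filter, a filter at a mean of 1 CPM, DESeq2 1.42.0, voom with quality weights in limma 3.58.1, an adjusted p of 0.1, animal number as a term, the animals above number 10 alone and leaving out each kidney. Leaving out 2 kidneys and the transcript balance as a term were chosen after seeing the data. The scripts were tested on simulated counts.

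The comparison and the 60 gene lists were chosen with earlier results of these data known. Genes were named by rule: the 20 largest rises and every fall that passed and averaged at least 1 CPM, genes marked in the lists, and up to 3 members of smallest p per list described. Promoters were to be printed for at most 5 genes, by size of rise. Birc5, Ccl2, H2-DMb2, Itgb2, Klf6, Nox4, Spp1 and Vim fall outside this rule and were chosen after their values were seen. Results for some of these genes are left out. Older symbols were matched through RefSeq (GRCm38.p6), and coordinates are from GENCODE M21 (GRCm38). Protein levels and splicing were not analysed here.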

Additional observations from a re-analysis of the deposited data

Results flagged for a closer look

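In a group of 6 kidneys, 1 kidney stood far from the others for 9 of the 266 gene and group pairs checked, and the transcript balance was flagged in 1 of its 2 groups; chance alone flags about 1 in 20. Control animal 3 was far above the other Control kidneys in Cfp (14.6 CPM), Cyba (583 CPM) and Osmr (33.0 CPM), and far below them in Nox4 (178.0 CPM) and in the balance of long against short transcripts (-0.201). LOY animal 8 was far above the other LOY kidneys in H2-Eb1 (433 CPM) and far below them in the Y-linked Ddx3y (38.0 CPM). Of the other Y-linked genes, Kdm5d (11.2 CPM) and Uty (14.2 CPM) were also lowest in that kidney. Eif2s3y, in contrast, was at its highest of all 12 kidneys there (77.8 CPM). The same kidney had the lowest transcript balance (-1.24), and the cause of these values was not tested. LOY animal 10 stood out in Osmr (63.3 CPM), Control animal 12 was low in Cxcl10 (4.88 CPM), and Control animal 13 was low in Sox9 (1.44 CPM).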

How the results depend on the processing

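No paired analysis was possible because the Control and LOY groups share no animal number. An adjusted p of 0.1 called 450 rises and 99 falls, DESeq2 582 and 233, voom with quality weights 689 and 373, and totals alone (no scaling factors) 102 and 3. The animals above number 10 alone gave 353 rises and 98 falls, leaving out LOY animals 8 and 10 gave 26 and 3, and a fit with neither LOY animal 8 nor Control animal 3 gave 726 and 395. Animal number as a term gave 15 falls, and the transcript balance as a term 4. Leaving out 1 kidney gave 0 to 478 rises and 0 to 129 falls. Genes with every LOY kidney above every Control kidney then numbered 211 to 605, and genes below 85 to 459. Without LOY animal 8 and Control animal 3 these were 724 and 560, and without LOY animals 8 and 10 there were 180 below. Scaling by median ratios or upper quartiles, no filter (calls only) and a mean of at least 1 CPM kept all these counts within 1.5 times. The cause of these changes was not tested.

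Genes named with differences near 0 changed sign in some settings. Eif2s3y was at -0.0055 with median-ratio scaling, -0.0178 with no filter, -0.0068 at a mean of at least 1 CPM, -0.0099 in DESeq2, -0.0111 with animal number as a term, -0.0918 with the transcript balance as a term, -0.0573 without LOY animals 8 and 10 and -0.0161 without LOY animal 8 and Control animal 3. Adipoq was at -0.373 in voom, -0.120 with the balance as a term, -1.05 above number 10 and -0.930 without LOY animals 8 and 10. With the balance as a term Aqp2 was at -0.172, Csf1r at -0.0042, Nphs1 at -0.0617, Umod at 0.0682, Cyba at -0.130 and Uty at 0.0016. Above number 10, S100a8 was at -0.163, Nphs1 at -0.108, Umod at 0.193, Cyba at -0.0594 and Uty at 0.0112. Without LOY animals 8 and 10, S100a8 was at -0.158 and Nphs1 at -0.118. Leaving out 1 kidney gave ranges of -0.958 to 2.34 for Adipoq, -0.0607 to 0.0450 for Eif2s3y, -0.0240 to 0.0934 for Csf1r and -0.108 to 0.236 for Ciita.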
